A study of Bos taurus with 18 samples.

Results

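NRG2 and CYSTM1 lie near each other on cattle chromosome 7 (BTA 7). Both are candidate genes for gestation length in the study that sequenced sperm DNA of 18 Holstein bulls. On the UMD 3.1 genome NRG2 lies at chr7:52713860-52908809 (194950 bp) and CYSTM1 at chr7:53047810-53118493 (70684 bp), with 139000 bp between them. Their members are all cytosine positions of CpG sites listed in at least 1 bull inside either gene or within 2000 bp of its ends, which gave 3162 positions for NRG2 and 1602 for CYSTM1, 4764 of the 40640718 positions listed in the series. The positions were chosen by place alone and not by their methylation.

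The study used whole-genome bisulfite sequencing, in which unmethylated cytosines are converted and methylated ones are kept, so that the percent of unconverted reads at a position measures its methylation. Each bull gave 1 sperm sample, and the study describes the bulls as fertile and age-matched. The labels place bulls in high and low groups for 5 traits. For the first 4 traits below the groups follow the predicted transmitting ability, the genetic merit passed to offspring, and for the last the basis was not given in the sources used here. The high bulls for gestation length (GL) were H03, H09, L03 and L05 and the low bulls H02, H05, L01 and L07. For sire calving ease (SCE) the high bulls were H03, H07 and L02 and the low bulls H01, H06 and L09. For body depth (BDE) H02, L03 and L08 were high and H05, H09 and L02 low. For cow conception rate (CCR) H08, H09 and L06 were high and H06, L08 and L09 low. For sire conception rate (SCR) H01, H02 and H03 were high and L01, L02 and L03 low. H04 and L04 are in none of these groups and were not compared between groups. They entered the descriptions and the values taken over all bulls, among them a tested correlation. Bulls are shared between traits, and the letters H and L in their names do not give a bull's group for GL.

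NRG2 encodes neuregulin 2, a growth factor with an EGF-like domain that binds receptors of the ErbB family and is best known from the nervous system. CYSTM1 encodes a small protein with a cysteine-rich transmembrane module, about which less is known. Most CpG sites of mammalian sperm DNA are methylated, and the main exception is CpG-rich sequence at the starts of genes, which is often free of methylation. In the RefSeq gene table of the newer ARS-UCD2.0 assembly NRG2 and CYSTM1 lie on the same chromosome, with PSD2 next to NRG2 on the far side and PFDN1 and HBEGF beyond CYSTM1. Exons, introns, UTRs and the strand of the genes on UMD 3.1 were not given in the sources used here, so positions are placed by their distance from the lower and upper end of each gene.

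The data differed in how many positions a bull listed. Within NRG2 and its flanks the bulls listed from 168 positions in H01 to 2047 in H08, with a median of 792. Within CYSTM1 the range ran from 52 in H01 to 810 in H08, with a median of 420.5. Only 3 positions of each gene were listed in all 18 bulls, while 548 positions of NRG2 and 253 of CYSTM1 were listed in a single bull. Coverage was deposited for 6 bulls, where the mean was 12 reads per position in NRG2 and 11.9 in CYSTM1. For the other 12 bulls only the percent was given and the depth is unknown. With about 10 reads a position in a single bull is measured coarsely. Where a bull listed the cytosines of both strands of a CpG, which happened 2030 times in NRG2 and 1132 times in CYSTM1, the strands differed by a median of 6.25 and 6.67 percentage points, and by over 30 points in 14 and 11 cases.

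Both genes were highly methylated along most of their length. The mean over bulls was at least 90% at 82.8% of NRG2 positions and 83.7% of CYSTM1 positions, against 69.1% of all positions of the series. A mean of at most 20% was found at 5.53% and 6.62% of positions, against 8.64% of all positions. Of the positions listed in at least 12 bulls, 204 in NRG2 and 70 in CYSTM1, the share with a mean of at least 90% was 90.7% and 75.7%. The positions listed in every bull show the usual state. In NRG2, position 52754063 had a mean of 96.1% ± 5.55 (SD, n = 18), position 52776352 had 97.3% ± 5.16 and position 52875815 had 94.8% ± 5.97. In CYSTM1, position 53097634 had 94.5% ± 6.32 and position 53107179 had 95.6% ± 5.01. The remaining one, position 53097637, lies next to the first and had a mean of only 76.4% ± 12.9, with bulls from 50% to 92.3%.

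**Figure D1:**
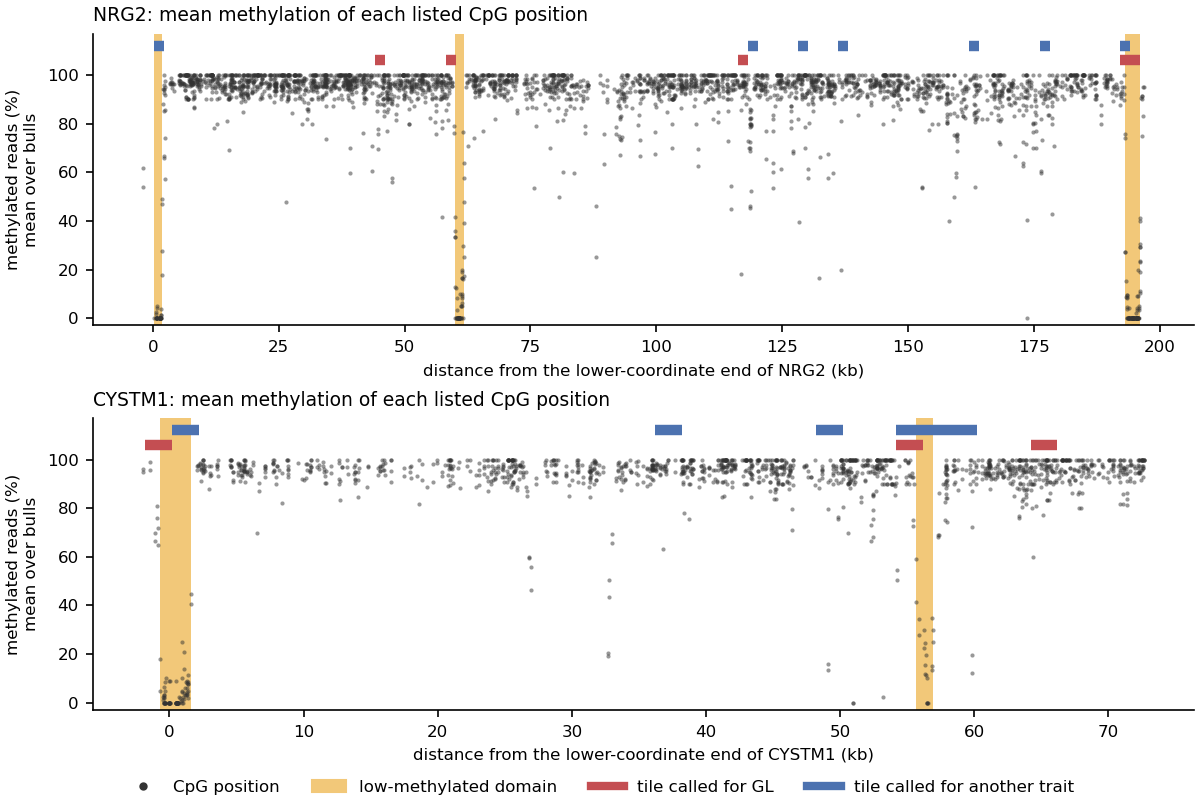
Mean percent methylation over bulls (vertical axis) of each listed CpG position against its distance from the lower end of the gene in kb (horizontal axis), for NRG2 above and CYSTM1 below. Shaded stretches are the low-methylated domains, and coloured bars mark 2000-bp tiles called for gestation length or for another trait. Both genes sit above 90% along most of their length and drop towards 0 in 3 places in NRG2 and 2 in CYSTM1.

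When the genes were divided into tiles of 2000 bp, the mean over bulls was at least 90% in 87 of 100 tiles of NRG2 and in 32 of 39 tiles of CYSTM1, and the median tile stood at 94.5% and 95.1%. The low tiles were few. In NRG2 the 3 lowest were chr7:52908001-52910000 with 8.09%, chr7:52774001-52776000 with 22.5% and chr7:52714001-52716000 with 34.4%. In CYSTM1 the 3 lowest were chr7:53048001-53050000 with 16.3%, chr7:53046001-53048000 with 51.7% and chr7:53104001-53106000 with 62.0%. The lowest tile of NRG2 holds the upper end of the gene, and the tile chr7:53046001-53048000 holds the lower end of CYSTM1. The tile at the upper end of CYSTM1, chr7:53118001-53120000, was methylated at 95.3%.

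The methylation of neighbouring positions fell together over short stretches, called low-methylated domains here. A domain is a run of at least 8 listed positions with a mean under 50%, in which up to 2 higher positions are bridged. NRG2 held 3 domains and CYSTM1 held 2. The mean of a domain is taken over the means of its positions. The mean of its neighbours is taken over all their listed values, so positions listed in more bulls weigh more there. The level chose these stretches, so their low level is a description and was not tested.

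The first NRG2 domain, chr7:52714010-52715758, has its first listed position 150 bp inside the lower end of the gene. Its 40 positions had a mean of 4.04%, and 36 of them were at 10% or less. The 10 positions listed next to it on the inner side had a mean of 88.4%. On the outer side the nearest listed tile was chr7:52710001-52712000, with 2 positions. The fewer than 10 positions listed on this side had a mean of 61.0%, and the farthest lay 2012 bp from the domain. No position was listed between that tile and the tile chr7:52714001-52716000, so the outer edge of the domain was not observed. The second NRG2 domain, chr7:52773779-52775702, lies inside the gene, 59919 bp from the lower end. Its 57 positions had a mean of 12%, and the 10 neighbours on either side stood at 93.7% and 93.4%. The third, chr7:52906985-52910015, spans the upper end of the gene, reaching 1206 bp beyond it. It was the longest, with 97 positions over 3031 bp and a mean of 4.58%, and its border was sharp. The positions 52906948 and 52906949 had means of 75.8% and 74.2%, while positions 52906985 and 52906986 had 27.1% and 27.4%.

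The first CYSTM1 domain, chr7:53047079-53049446, spans the lower end of the gene, reaching 1636 bp into it. It held 91 positions in 2368 bp with a mean of 4.09%. The second, chr7:53103433-53104713, lies 55623 bp inside the gene. It was the shallowest of the 5, with 20 positions and a mean of 18.4%, and only 5 of its positions were at 10% or less. The upper end of CYSTM1 had no domain.

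The domain at the lower end of CYSTM1 was low in every bull, from 0% in H01, which listed 4 of its positions, to 9.09% in H02, with a median of 5.36% over 18 bulls. The domain at the upper end of NRG2 was also low in all 18 bulls, from 1.70% in L05 to 25.4% in L08, with a median of 9.92%. The other domains spread more and rested on fewer positions. The first NRG2 domain ranged from 0% to 53.8% over 16 bulls, the highest value coming from the 2 positions of H07. The second ranged from 4.90% to 48.7% over 15 bulls, and the second CYSTM1 domain from 6.67% to 46.8% over 15 bulls. Since each bull lists its own positions, these ranges hold differences between positions as well as between bulls.

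**Figure D2:**
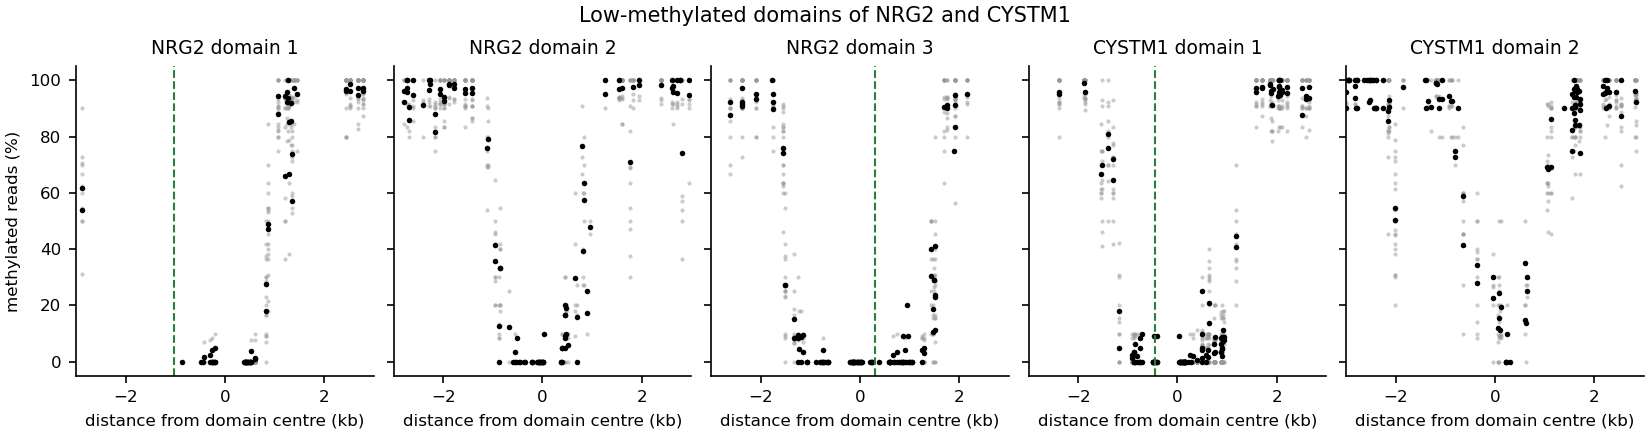
Percent methylation (vertical axis) of positions within 3 kb of the centre of each low-methylated domain (horizontal axis, distance in kb). Grey points are single bulls, black points the mean over bulls, and the green dashed line is an end of the gene. The 3 domains at gene ends have black points near 0 over most of their length, and the second CYSTM1 domain is the least deep.

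All domains but the second of CYSTM1 were richer in listed CpG positions than their gene with its flanks, and the positions of all 5 were listed in fewer bulls. They held 22.9, 29.6 and 32 positions per kb in NRG2, against 15.9 over NRG2 with its flanks, and 38.4 and 15.6 in CYSTM1, against 21.5. A position in the 3 NRG2 domains was listed in 2.93, 2.00 and 2.09 bulls on average, against 4.90 over the gene. In the CYSTM1 domains the values were 3.71 and 3.15, against 4.68. A tile that straddles the edge of a domain thus holds low and high positions, and each bull listed a different mix of them.

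To compare bulls that list different positions, percent methylation was fitted to an effect of the bull and an effect of the position, over positions listed in at least 2 bulls. The result is the position-adjusted level of each bull. Over all 18 bulls it ran in NRG2 from 88.3% in L06 to 92.5% in L03, with a median of 91.3% and an SD of 0.915. In CYSTM1 it ran from 88.0% in L06 to 91.7% in L03, with a median of 90.1% and an SD of 0.854. The same 2 bulls stood at the ends of the range in both genes. For BTA 7 as a whole L06 was also the lowest, at 77.6%, where the median was 80.7%, and H06 was the highest at 82.4%.

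The levels of NRG2 and CYSTM1 were related across the 18 bulls through these extremes. Pearson's r was 0.670 (permutation p = 0.00453) and Spearman's rho 0.443 (permutation p = 0.0671) for this single relation. Without L03 and L06, the 2 bulls farthest from the NRG2 median, r was 0.122, so the relation rests on them. After the level of BTA 7 was subtracted from each gene in each bull, r was 0.437.

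**Figure D3:**
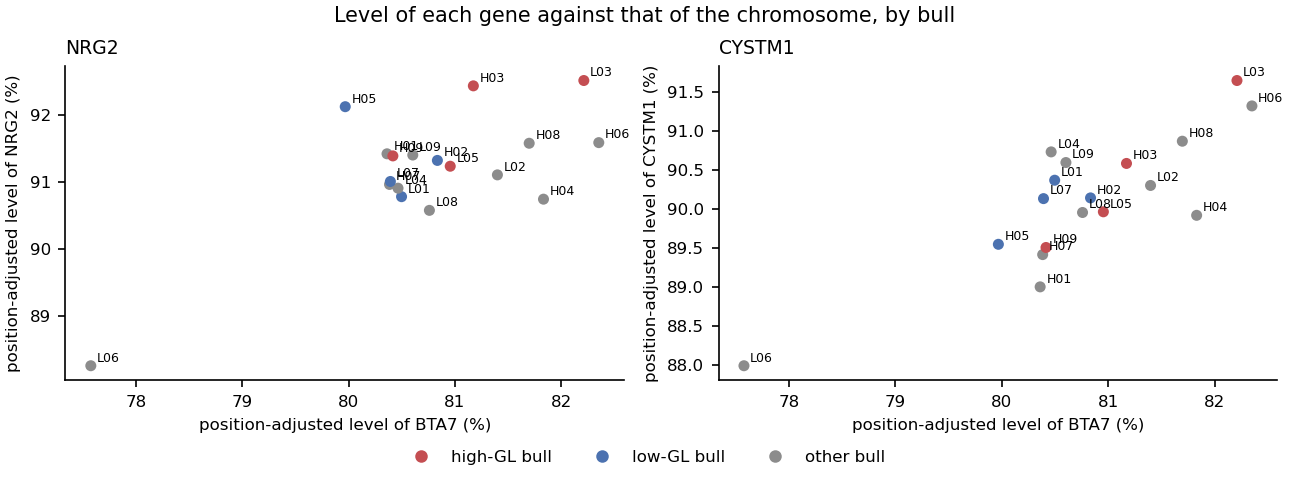
Position-adjusted level of NRG2 (left) and CYSTM1 (right) in each bull against the position-adjusted level of BTA 7 in the same bull, all in percent. Each point is 1 of 18 bulls, coloured by its gestation length group, and L06 lies apart at the lower left in both panels.

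The first question was whether the level of either gene differed between bulls with a high and a low GL. The 8 GL bulls were fitted on their own, over 1713 positions in NRG2 and 902 in CYSTM1. In NRG2 the high bulls H03, H09, L03 and L05 had levels of 93.9%, 92.5%, 94.1% and 92.7%, and the low bulls H02, H05, L01 and L07 had 92.8%, 93.5%, 92.1% and 92.3%. The groups overlapped. The means were 93.3% ± 0.813 and 92.7% ± 0.649 (SD, n = 4 each), a difference of 0.624 points (exact permutation test, two-sided, p = 0.229, adjusted p = 0.571 over 8 regions). In CYSTM1 the high bulls had 91.1%, 90.2%, 91.9% and 90% and the low bulls 90.3%, 89.8%, 90.7% and 90.1%, again overlapping. Their means were 90.8% ± 0.880 and 90.2% ± 0.372, a difference of 0.546 points (exact permutation p = 0.286, adjusted p = 0.571). With 4 bulls against 4 the smallest p this test can give is 0.0286, which for a single region adjusts to 0.229, so 5 of the 8 regions would have had to reach it for any to be called. Leaving out 1 bull gave 0.343 points (without L03) to 0.924 points (without H09) in NRG2, and 0.161 points (without L03) to 0.790 points (without L01) in CYSTM1.

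The ends of the genes were also compared on their own, in windows of 2000 bp on both sides of each end. The window at the lower end of NRG2 had 21.8% ± 5.54 in the high bulls and 24.4% ± 10.3 in the low bulls (n = 4 each), a difference of -2.52 points over 8 positions. The window at the upper end of NRG2 differed by 0.737 points, the window at the lower end of CYSTM1 by -0.253 and the one at its upper end by -0.714. None of these passed the exact permutation test, with p from 0.629 to 0.943 over the 4 windows. The difference for NRG2 was 1.57 points between the 4 bulls with deposited coverage and -0.325 points between the 4 with percent only, and for CYSTM1 0.972 and 0.121 points.

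No gene-level comparison passed the threshold for the other 4 traits either, with 7 or 8 regions each. For SCE the whole gene differed, high minus low, by 0.0676 points in NRG2 and 0.299 in CYSTM1. For BDE the differences were 0.0271 and 0.808 points, and for SCR 0.340 and -1.04 points. Within file formats, which are split 2 against 1 between the groups, SCE differed in NRG2 by 0.265 points between bulls with coverage and -0.578 between those with percent only, and in CYSTM1 by 1.42 and -0.407. For BDE these values were 0.911 and -1.16 in NRG2 and 0.471 and 0.655 in CYSTM1. For CCR, whose bulls all have percent only, the whole-gene differences were -0.821 points in NRG2 and -1.68 in CYSTM1. In NRG2 the CCR value was decided by L06, which stood at 89.2% beside 92.4% and 92.3% in the other high bulls H08 and H09, and 91.7% to 92.4% in the low bulls. Without L06 the difference was 0.310 points. With 1 bull left out the BDE difference ran from -0.494 (without L03) to 0.606 (without L08) in NRG2 and from 0.471 (without L03) to 1.31 (without H02) in CYSTM1. The SCR difference ran from -0.0435 (without L01) to 1.02 (without L03) in NRG2 and from -1.66 (without H02) to -0.485 (without L03) in CYSTM1, and the CCR difference in CYSTM1 from -2.71 (without H08) to -0.891 (without L06). For SCE it changed sign without H03 in NRG2 (-0.330) and without H01 in CYSTM1 (-0.250). With 3 bulls against 3 the exact test cannot go below p = 0.1, so it could not call a difference at 0.05 for these traits. The window at the lower end of NRG2 could not be fitted for BDE and CCR.

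The study's own unit of comparison was the differentially methylated region (DMR), a 2000-bp tile with a difference over 5 points at q under 0.01. It comes from a logistic regression on reads that leaves the spread between bulls of 1 group out of account. The difference pools the reads of each group. A bull with more listed reads thus weighs more, and the value can depart from the difference between the mean levels of the bulls. Here each listed position counted as 10 reads, except for SCR, whose bulls all have coverage. Of the tiles of NRG2 and CYSTM1 that could be tested for GL, 8 of 111 were DMRs, against 8.75% of all tiles tested in the genome. NRG2 held 5 in 78 tiles and CYSTM1 held 3 in 33, and over the remaining fine-mapped candidate genes of the study 27 of 396 tiles (6.82%) were DMRs. The share in these genes was thus close to that of the genome. Of the 8 DMRs, 2 were higher and 6 lower in high-GL bulls, where 4.99% and 3.75% of all tiles were called in each direction. The count was 4 without L05 and 5 without H05 or without L01.

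Most tiles of the genes differed little between GL groups. The median size of the difference was 1.61 points in NRG2 and 1.17 in CYSTM1, against 1.95 over all tiles. An F test with an overdispersion term called 0 tiles of the genes, as it did in the whole genome, and 4 had an unadjusted p under 0.05 with a difference over 5 points (3.47% of all tiles). limma with Benjamini-Hochberg adjustment also called 0 there and in the whole genome, and 6 passed unadjusted (3.59% of all tiles). In 6 of the 111 tiles all high bulls lay on 1 side of all low bulls, against 3.30% of all tiles.

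A difference over all listed positions can come from the positions as well as from the bulls. Therefore 2 further values were computed for each DMR. The first is the difference that would arise if each bull had, at the positions it lists, the mean level of those positions in the other bulls, called the difference set by the listed positions. Only positions that at least 1 other bull lists enter it, so it can rest on fewer positions than the difference over all of them. The other bulls include those of both groups and of neither, so a difference between the groups enters it too. The second is the difference at matched positions only, those that both groups list in 1 or more bulls, tested position by position with a Cochran-Mantel-Haenszel test. Like the logistic test, it pools the reads of a group and leaves the spread between its bulls out of account. At matched positions 0 of the 111 tiles were called for GL, against 2.19% of all tiles. There 2 of the 8 GL DMRs still differed by more than 5 points with the same sign, against 44.0% of all GL DMRs. The difference set by the listed positions exceeded 5 points in 5 of the 8, against 47.4% of all GL DMRs.

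The most often called tile of NRG2 was chr7:52906001-52908000, which straddles the lower edge of the domain at the upper end of the gene. In the high-GL bulls H03, H09, L03 and L05 it stood at 50.2%, 70.0%, 29.8% and 8%, and in the low-GL bulls H02, H05, L01 and L07 at 32.4%, 54.0%, 44.8% and 56.0%. L05 was the lowest of the 8 bulls and H09 the highest, both in the high group. Pooled over positions the difference, high minus low, was -16.8 points (q = 9.05e-05). L05 listed 18 positions, of which 17 lie in the domain, while H09 listed 4 with 1 in the domain. The difference set by the listed positions was -16.0 points, and at the 12 matched positions the difference was 3.65 points, in the other direction. Without L05 it was 1.65 points over all positions, without H03 -27.6 points, and without L07 -12.7 points and no longer called.

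The tile beyond it, chr7:52908001-52910000, lies wholly in that domain for all listed positions. The high bulls had 20.7%, 0%, 0% and 1.09% and the low bulls 8.33%, 14.8%, 31.7% and 0%. H03 and L01 were the highest, 1 in each group. The pooled difference was -8.87 points (q = 0.00725), and -0.490 points without L05, which listed 25 of the positions. It was -2.42 points without L01 and -17.7 points without L07, and the call was also lost without H09 or H05. The difference set by the listed positions was -6.28 points, and the 4 matched positions gave -1.84 points.

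The tile chr7:52772001-52774000 straddles the edge of the second NRG2 domain. The high-GL bulls stood at 99.0%, 81.4%, 100% and 89.1% and the low-GL bulls at 77.7%, 69.3%, 89.1% and 60.3%. All but L01 of the low bulls were below every high bull. The pooled difference was 13.4 points (q = 2.35e-06), and 20.4 points without L01. Positions inside the domain made up 3 of 6 positions in L07, 3 of 9 in H05 and 3 of 12 in H02, but 0 of 9 in H03 and 0 of 5 in L03. Outside the domain the 8 bulls stood between 91.7% and 100%. The difference set by the listed positions was 10.8 points, and at the 19 matched positions it was 2.11 points.

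The other GL DMRs of NRG2 lie in its methylated body. In chr7:52758001-52760000 the high bulls had 93.1%, 93.5%, 91.3% and 81.5% and the low bulls 95.0%, 97.7%, 94.1% and 95.9%. Every low bull was above every high bull, and L05 was the lowest of the 8. The difference was -6.43 points (q = 0.00275), and the difference set by the listed positions was -0.440. At the 17 matched positions it was -3.26 points, and without L05 it was -3.11 points over all positions. The call was also lost without H05. In chr7:52830001-52832000 the high bulls had 91.9%, 92.3%, 100% and 88.7% and the low bulls 99.2%, 92.7%, 99.1% and 97.1%, with L03 above all of them. The difference was -5.99 points (q = 0.00334), against -3.39 points set by the listed positions and -3.61 at the 15 matched positions. The call was lost without L05 (-4.51 points), H02 (-5.05 points) or L01 (-5.32 points).

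In CYSTM1 the tile with the greatest GL difference was chr7:53046001-53048000, at the lower end of the gene. The high-GL bulls stood at 26.2%, 77.5%, 95.8% and 21.2% and the low-GL bulls at 71.2%, 57.3%, 72% and 100%. The high bulls H03 and L05 were far below the other 6, and the high bulls H09 and L03 were among the highest. The pooled difference was -33.5 points (q = 6.06e-13). H03 had 14 of its 20 positions and L05 11 of its 14 inside the domain, against 0 of 4 in H09, 0 of 2 in L03, 1 of 5 in H02, 2 of 9 in H05, 1 of 5 in L01 and 0 of 1 in L07. Inside the domain H03 had 3.65% and L05 2.64%, and the low bulls that listed positions there had 5% to 10%. At the 9 matched positions the difference was -0.559 points, while the difference set by the listed positions was -22.9 points.

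The tile chr7:53102001-53104000 straddles the edge of the second CYSTM1 domain. The high bulls had 83.2%, 85.0%, 72.7% and 88.5%, and the low bulls 82.7%, 47.2%, 70.9% and 29.2%. L07, with 29.2%, listed only 2 positions of the tile, 53102062 and 53102063, the cytosines of 1 CpG. These had intermediate means of 50.3% over 13 bulls and 54.8% over 9 bulls. The pooled difference was 17.4 points (q = 4.62e-05), and the difference set by the listed positions was 8.72. At the 15 matched positions it was 7.12 points, which the stratified test did not call (q = 0.197). Over all positions the difference was 28.5 points without H02 and 11.7 points, no longer called, without H05. The difference was 1.19 points between bulls with deposited coverage and 48.5 points between those with percent only.

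The last GL DMR of CYSTM1, chr7:53112001-53114000, kept its size at matched positions. The high bulls H03, H09, L03 and L05 stood at 80.7%, 96.7%, 90.5% and 90.4% and the low bulls H02, H05, L01 and L07 at 93.6%, 96.1%, 96.5% and 96.0%. H09 was the highest of all 8, and the other 3 high bulls were the lowest. The difference was -6.27 points over all positions (q = 0.00154) and -6.76 points at the 17 matched positions, where the stratified test gave q = 0.109. The listed positions set -0.309 points. A single position, 53112443, carried much of it. There H03 had 36.4% and L05 23.1%, and the 8 other bulls that listed it, of which L02, L04, L06, L08 and H07 are in no GL group, had 83.3% to 100%. Without positions that differed so widely between bulls (SD over 20 points), the difference was -3.14 points and was no longer called. The call was also lost without L05 (-7.98 points) or L01 (-5.78 points).

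**Figure D4:**
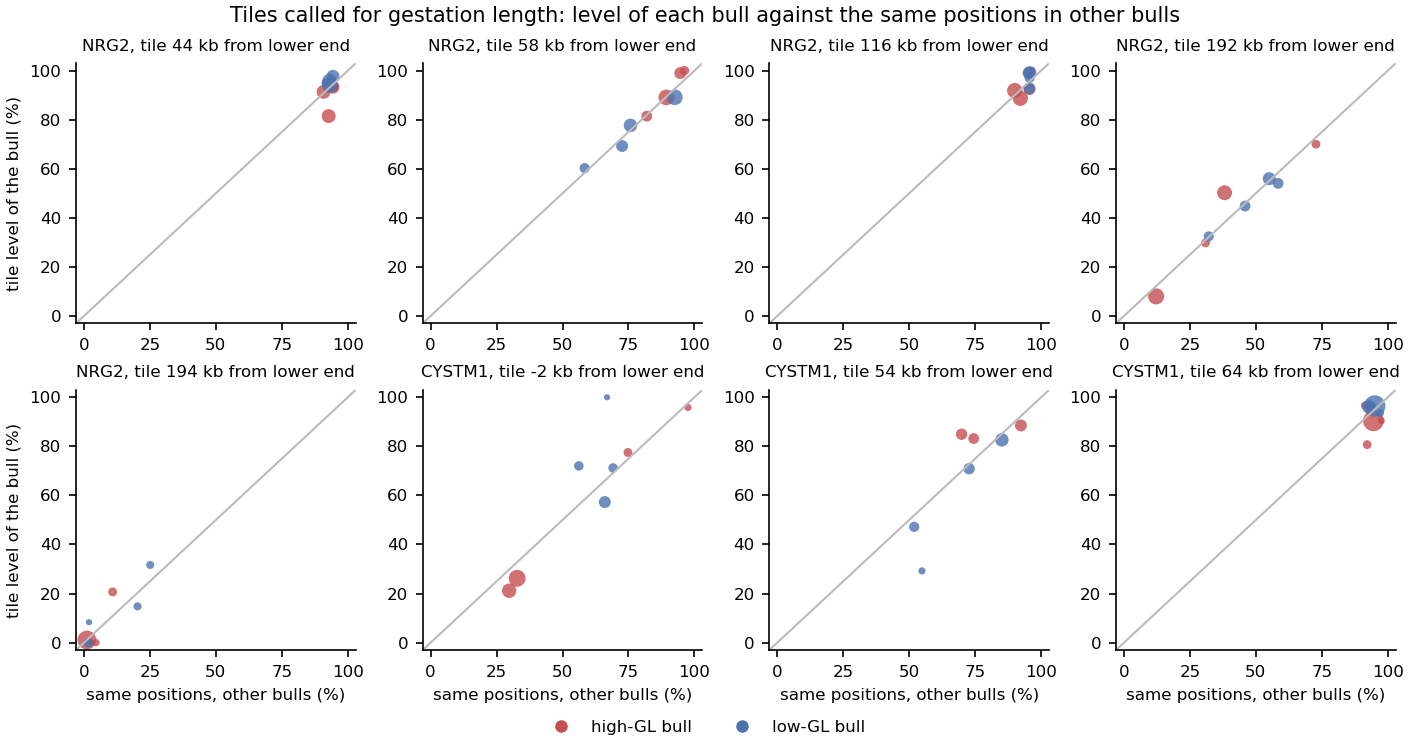
Level of each gestation length bull in the 8 called tiles (vertical axis, percent) against the mean level of the same positions in other bulls (horizontal axis, percent). Point size grows with the number of positions the bull listed, red marks high and blue low bulls, and the grey line is equality. In the second NRG2 tile and in the tile before the upper end of NRG2 the bulls spread along the line.

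The other traits were compared in the same way and share bulls with GL and with one another. For SCE 2 of 76 tiles of the genes were DMRs, against 6.18% of all tiles. For BDE the count was 6 of 93 tiles, against 7.57%, and for CCR 8 of 100, against 11.1%. For SCR it was 3 of 82, against 8.68%. Over both genes together the share was below that of the genome in each trait, but on few tiles and not in each gene. For BDE 3 of 32 CYSTM1 tiles (9.38%) and 3 of 61 NRG2 tiles (4.92%) were DMRs. For SCR the counts were 2 of 19 (10.5%) and 1 of 63 (1.59%). These CYSTM1 shares were slightly above those of the genome, as for GL (9.09%), but on few tiles and close to them. For SCE the shares were 5.56% in CYSTM1 and 1.72% in NRG2, and for CCR 8.82% and 7.58%. Both SCE DMRs were lower in high bulls (3.54% of all tiles, with 2.64% higher). Of the BDE DMRs 3 were higher and 3 lower (4.71% and 2.86%), of the CCR DMRs 2 and 6 (2.58% and 8.48%), and of the SCR DMRs 2 and 1 (4.13% and 4.54%). The groups did not overlap in 9 tiles for SCE, 8 for BDE, 14 for CCR and 7 for SCR, against 9.26%, 10.1%, 9.94% and 9.13% of all tiles. The BDE count was 3 without H05 and the CCR count 5 without H06. The SCR count was 1 without H03 or L01, 5 without H01 or L02 and 6 without L03. The F test and limma called 0 tiles in each trait, in these genes and in the genome. At an unadjusted p under 0.05 with a difference over 5 points, the F test passed 0, 3, 5 and 0 tiles for SCE, BDE, CCR and SCR (2.46%, 2.81%, 2.89% and 2.72% of all tiles), and limma 1, 1, 5 and 2 (3.30%, 3.84%, 3.61% and 3.40%).

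The tile chr7:52906001-52908000 of NRG2 was a DMR for SCE, BDE and CCR as well. For SCE the high bulls H03, H07 and L02 had 50.2%, 13.3% and 64.5%, and the low bulls H01, H06 and L09 had 50%, 91.7% and 80.2%. H07 listed 5 positions, all in the domain, and H06 listed 7, none in it. The difference was -34.4 points and the difference set by the listed positions -39.4, while matched positions gave 2.77 points. For BDE it was -24.3 points, with -25.9 set by the listed positions and 2.79 at matched ones, and the call was lost without H02 or L03. For CCR it was -32.9 points, with -32.0 set by the listed positions and 3.79 at matched ones. In all 4 traits the high bulls were thus lower over all listed positions and slightly higher at matched ones, where none passed the test. L05 in the GL comparison and H07 in the SCE comparison listed this tile almost wholly in the domain.

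The remaining SCE DMR was chr7:53106001-53108000 in CYSTM1. The high bulls H03, H07 and L02 had 93.5%, 72.7% and 95.4% and the low bulls H01, H06 and L09 had 100%, 98.8% and 100%. The groups did not overlap, and H07 listed 4 positions. The difference was -8.42 points, with -2.67 set by the listed positions and -4.14 at matched ones. The call was lost without H07 (-4.83 points) or H06 (-9.32 points). The same tile was a DMR for CCR, where H08, H09 and L06 had 90.1%, 91.3% and 85.6% and H06, L08 and L09 had 98.8%, 95.6% and 100%, a difference of -9.00 points, with -3.72 set by the listed positions and -5.27 at matched ones, and no longer called without H06. For SCR the high bulls H01, H02 and H03 had 100%, 94.7% and 93.5% and the low bulls L01, L02 and L03 had 82.1%, 95.4% and 85.4%. These groups overlapped, and the difference was 8.68 points, with 7.17 set by the listed positions, but -0.322 points at matched ones. It was no longer called without L01 (4.74 points) or H02 (8.32 points).

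For BDE the largest remaining DMR of NRG2 was chr7:52850001-52852000. The high bulls H02, L03 and L08 had 100%, 90.9% and 51.5% and the low bulls H05, H09 and L02 had 96.8%, 98.1% and 92.5%. Only L08 was low, on 3 positions. The difference was -18.2 points, with -5.66 set by the listed positions and -9.45 at the 2 matched ones. Without L08 it was 1.56 points, without H02 -34.8 points, and the call was also lost without H05. L08 is also a low-CCR bull, and this tile was a DMR for CCR, where the high bulls H08, H09 and L06 had 94.3%, 98.1% and 94.2% and the low bulls H06 and L09 had 92.3% and 100%. That difference was 9.83 points, with 1.54 set by the listed positions and 6.13 at matched ones. It was 1.43 points without L08 and 24.0 points without H06, and the call was lost without each of the high bulls too. The tile holds position 52850546, which differed widely between bulls (SD over 20 points). There L08 had 50% and H06 46.7%. Without this position the CCR difference was 4.04 points and was no longer called, and for BDE the tile could not be tested. The CYSTM1 tile chr7:53102001-53104000 differed by 15.8 points for BDE, where the difference set by the listed positions was 24.6, and by -4.88 points at matched positions. The first of these values was 7.39 points without H05 and 27.9 points without H09, and the call was lost without each of the bulls H02, L08, H05 and L02. In the CYSTM1 tile chr7:53096001-53098000 the high bulls had 95.5%, 95.0% and 93.9% and the low bulls 82.7%, 85.7% and 93.8%. These groups did not overlap, and the difference was 8.63 points, with 3.49 set by the listed positions and 5.60 at matched ones. It was 4.10 points without H05, and the call was lost without each of the bulls H02, L03, H05 and H09. The smallest BDE DMR of NRG2 by difference, chr7:52842001-52844000, stood at 83.4% ± 16.1 in the high and 97.4% ± 3.31 in the low bulls (SD, n = 3 each). The difference was -9.08 points, with 4.01 set by the listed positions and -13.3 at the 6 matched ones (q = 0.0572). It was -5.37 points without L08 and -16.3 points without H02, and the call was lost without L08, H09 or L02.

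At matched positions 2 of 93 tiles of the genes were called for BDE, against 1.60% of all tiles, and 1 of 100 for CCR, against 4.41%. None was called for SCE (1.31% of all tiles) or SCR (2.54%). These tiles are named here after their values were seen, and the test at matched positions leaves the spread between bulls out of account. The CYSTM1 tile chr7:53084001-53086000 stood at 97.0%, 100% and 96.0% in the high-BDE bulls H02, L03 and L08 and at 91.9%, 90.5% and 89.3% in the low-BDE bulls H05, H09 and L02. The difference was 7.02 points, with -1.34 set by the listed positions, and 10.9 at the 14 matched ones (q = 0.000464). Over all positions the call was lost without L03 or L02. Much of it lay in position 53084596, where the high bulls had 100%, 100% and 92.3% and the low bulls 30%, 60% and 46.7%. The other bulls that listed this position are in no BDE group and had 38.5% (H03), 69.2% (L01) and 33.3% (L05). Without positions of this kind the difference of the tile was 2.53 points.

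The NRG2 tile chr7:52832001-52834000 was called for CCR over all positions and at matched positions. The high-CCR bulls H08, H09 and L06 had 88.0%, 81.8% and 80.8% and the low-CCR bulls H06, L08 and L09 had 100%, 96.3% and 93.6%. The groups did not overlap, and the difference was -11.2 points, with 0.633 set by the listed positions and -11.8 at the 12 matched ones (q = 0.00754). Over all positions the call was lost without H06. For BDE the high bulls H02, L03 and L08 had 93.8%, 93.1% and 96.3% and the low bulls H05, H09 and L02 had 88.4%, 81.8% and 89.4%, a difference of 7.51 points that was not called, and 14.2 points at the 11 matched positions that was (q = 0.00244). In this tile positions 52832555, 52832584, 52832687 and 52832723 had means between 79.1% and 80%. At position 52832687 L06 had 43.8%, L05 50% and H09 61.5%, while H01, H02 and L03 had 100%. At position 52832723 L06 had 50% and L04 53.8%. The low values at these positions came from bulls of more than 1 group.

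The remaining CCR DMRs of large size were at domain edges. In the tile chr7:52714001-52716000 at the lower end of NRG2 the high bulls H08, H09 and L06 had 9.39%, 12% and 9.03% and the low bulls H06, L08 and L09 had 32.9%, 100% and 30%. H08 and L06 listed 34 of 35 and 20 of 21 positions in the domain, and the single position of L08 lies outside it. The difference was -29.8 points, the listed positions set -30.7, and at the 7 matched positions it was -4.29 points. Without H06 it was -55.5 points over all positions. The CYSTM1 tile chr7:53104001-53106000 differed by -18.4 points for CCR, where the difference set by the listed positions was -17.9, and by -3.32 points at matched positions. It was -28.7 points without H08, and the call was lost without H06. The neighbouring tile chr7:53102001-53104000 differed by 18.7 points for CCR, with 10.7 set by the listed positions and 2.96 at matched ones. It was 9.06 points without L09, and the call was lost without L09 or H08. The last CCR DMR, chr7:52876001-52878000 in NRG2, is no domain edge tile and stood at 86.0% ± 8.90 in the high and 96.2% ± 0.973 in the low bulls (SD, n = 3 each), without overlap. The difference was -9.20 points, with -0.237 set by the listed positions and -7.14 at the 16 matched ones (q = 0.0355). It was -4.92 points without L06 and -14.4 points without H08, and the call was lost without L06 or H06.

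For SCR, the comparison with deposited coverage in every bull, the CYSTM1 tile chr7:53048001-53050000 at the lower end of the gene stood at 0%, 17.3% and 8% in the high bulls H01, H02 and H03 and at 19.7%, 22.0% and 21.8% in the low bulls L01, L02 and L03. The groups did not overlap. All 4 positions of H01 and all 19 of H03 lie in the domain, while each low bull listed at least 2 positions outside it, and these were at 95.5% to 100%. Over all positions they differed by -11.7 points, with -16.9 set by the listed positions and -0.949 at matched ones. The call was lost without H03. The NRG2 tile chr7:52890001-52892000 stood at 87.3%, 95.9% and 95.1% in the high bulls and 84.4%, 93.6% and 94.4% in the low bulls. These groups overlapped, and the difference pooled over reads was 6.71 points, with 1.98 set by the listed positions and 3.93 at matched ones. It was 1.52 points without L01, and the call was lost without L01, H03 or H02, with each position counted as 10 reads, and with Benjamini-Hochberg adjustment.

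Counted over the 5 traits, the genes held 27 DMR calls in 19 tiles. At matched positions 10 of the 27 calls kept their direction with over 5 points, 11 kept it with under 5 points, and 6 had the other direction. The median size was 11.2 points when all positions were used and 3.93 points at matched ones. In 15 of the 27 the difference set by the listed positions exceeded 5 points. These were 5 of 8 for GL, 1 of 2 for SCE and 3 of 6 for BDE, against 47.4%, 52.5% and 53.9% of all DMRs. They were 4 of 8 for CCR and 2 of 3 for SCR, against 38.4% and 47.5% of all DMRs. Within single traits 0 of 2 SCE, 4 of 6 BDE, 4 of 8 CCR and 0 of 3 SCR calls kept over 5 points, against 54.2%, 51.5%, 62.3% and 52.2% of all DMRs of those traits.

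Some positions differed widely between bulls. Positions listed in at least 8 bulls with an SD over bulls above 20 points are called split positions here. NRG2 had 11 among 715 such positions (1.54%) and CYSTM1 3 among 304 (0.987%), against 5.11% in the genome. The SD decided membership, so it is given as a description. The lowest SD inside was 20.9 points in NRG2 and 25.5 in CYSTM1, and the highest outside 18.8 and 19.8. The median SD of all positions listed in at least 8 bulls was 5.36 points in NRG2 and 5.78 in CYSTM1.

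At the NRG2 split positions 12 of the 18 bulls were under 80% at least once, and some bulls far more often than others. L01 and L06 were under 80% at all 9 split positions that each of them listed. H06 and L08 were under 80% at all 5 that each listed, L04 at 6 of 9, L05 at 5 of 9, H08 at 5 of 11, H02 at 3 of 5 and H07 at 2 of 5. H01, H04 and L07 were under 80% at 1 each. H03, H05, H09, L02, L03 and L09 were never under 80% at the 3 to 8 they listed. The widest range was at position 52789630, where L01 and L06 had 0%, L05 40%, H08 52.9%, H02 60%, L04 76.9%, and H05 and L02 100%. At position 52726106 the low bulls were L06 with 27.8%, H06 with 35.3%, L04 with 38.9%, L05 with 40% and L01 with 60%, while the other 11 bulls had 83.3% to 100%. No other split position had a bull at 20% or less. In CYSTM1, L05 was under 80% at all 3 split positions and H03 at both that it listed.

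The bulls that were under 80% at NRG2 split positions included bulls of both GL groups and of neither. L01, H02 and L07 are low-GL bulls and L05 is a high-GL bull, while L06, H06, L08, L04, H08, H07, H01 and H04 are in neither.

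**Figure D5:**
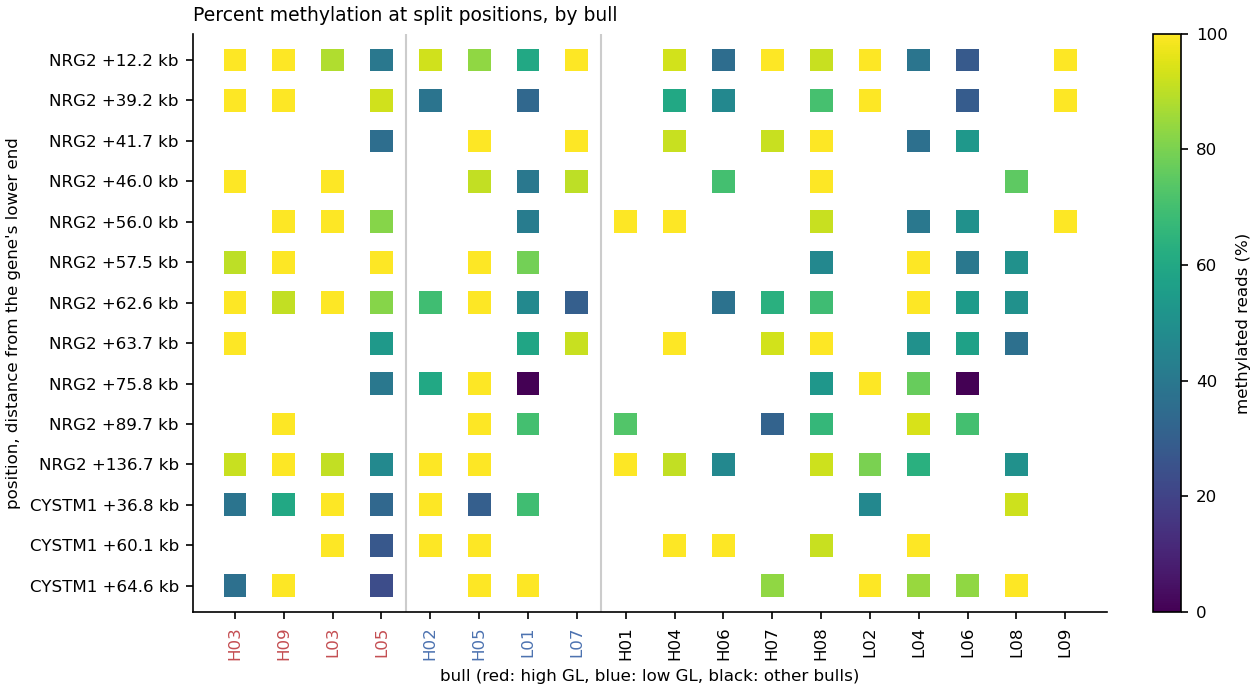
Percent methylation (colour) at the 11 split positions of NRG2 and the 3 of CYSTM1 (rows, by distance from the lower end of the gene in kb) in each bull (columns). Empty cells are positions a bull did not list, and bull names are red for high, blue for low and black for no gestation length group. L01 and L06 are dark or intermediate in every NRG2 row they list.

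Among the other fine-mapped candidate genes of the study, those whose position-adjusted level followed NRG2 most closely over the 18 bulls were BOP1 (r = 0.711, rho = 0.340), WWP2 (r = 0.663, rho = 0.498) and CDKL1 (r = 0.660, rho = 0.492). BOP1 rested on as few as 2 positions in a bull. CYSTM1 was followed most closely by WWP2 (r = 0.751, rho = 0.703), MYH10 (r = 0.732, rho = 0.686) and CDKL1 (r = 0.707, rho = 0.610). The median r over the genes with positions in all bulls was 0.296 for NRG2 and 0.404 for CYSTM1. With the level of BTA 7 as a whole r was 0.715 for NRG2 and 0.836 for CYSTM1, higher than with any of these genes. All levels come from the same 18 libraries. Without the 2 bulls farthest from the median of the gene, r with WWP2 was 0.311 for NRG2 and 0.535 for CYSTM1. These values are a description and carry no test.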

How the data were processed

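Sperm DNA of 18 bulls was analysed. The authors checked the reads with FastQC 0.11.2, trimmed them with Trim Galore 0.4.0, mapped them to UMD 3.1 with Bowtie2 and extracted methylation with Bismark 0.14.5, and kept positions with at least 10 reads. The values deposited by the authors are the percent of reads called methylated. Read counts (coverage) were deposited beside it for H01 to H03 and L01 to L03 only, with means of 12.8 to 13.7 reads and a range of 10 to 100. Elsewhere depth is unknown, although the tests had been planned on read counts, so each position counted as 10 reads, except in the SCR comparison. The bulls listed 2858992 to 22048556 positions, and fewer positions or reads mean wider error. No list of cell type markers was applied to these DNA data.

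Positions were summed in 2000-bp tiles of the whole genome, and tiles with at least 1 position in every bull of a comparison were tested. After the methods of the study, tiles were tested by logistic regression (likelihood ratio test), with q values by a simplified SLIM method (share of tiles without a difference taken as the median slope over 10 segments of p between 0.1 and 1). limma 3.58.1 (R 4.3.3) was run on log2 ratios (methylated over unmethylated, each plus 1 read) derived from what was deposited. Gene levels were tested between groups by exact permutation with Benjamini-Hochberg adjustment over the regions of both genes, and correlations by 100000 permutations. Python 3.11.15, NumPy 2.4.6, SciPy 1.17.1, pandas 2.3.3 and matplotlib 3.10.9 were used. The tile tests and the position-adjusted level were tried on simulated data. Reads for the tile tests were drawn without a spread between bulls, so these runs cannot show how the tests behave with it.

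The genes, lists and thresholds were chosen with earlier results of these data known. Named tiles were all GL DMRs, the 2 largest DMRs of each gene for the other traits, the tiles at the gene ends and the 3 lowest tiles of each gene. The CYSTM1 tile at 53106001 for CCR, the remaining BDE and CCR DMRs of NRG2 and the tiles called at matched positions were added after their values were seen. Named genes were the 3 most alike among the study's other fine-mapped genes, of which 22 of 25 (with NRG2 and CYSTM1) had positions in all bulls. Alternatives were another threshold, at least 3 positions per bull, the F test with overdispersion (floored at 1), limma, Benjamini-Hochberg adjustment, 13 reads per position (10 for SCR), a coverage minimum of 15 reads for SCR, tiles shifted by 1000 bp, matched positions, other gene levels and each bull left out. Leaving out split positions was chosen after seeing the data. A planned list of ErbB ligands and receptors was not counted, since no coordinates on UMD 3.1 were used for them here.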

Additional observations from a re-analysis of the deposited data

Results flagged for a closer look

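Of 20 groups of 4 bulls checked for a bull far from the others, 2 were flagged, and chance flags about 1 in 20. In the NRG2 tile chr7:52908001-52910000 the high-GL bull H03 stood at 20.7% over 4 positions, and the next high-GL bull, L05, at 1.09%. In the CYSTM1 tile chr7:53112001-53114000 the low-GL bull H02 stood at 93.6% over 3 positions, and the next low-GL bull, L07, at 96.0%.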

How the results depend on the processing

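The counts of DMRs in NRG2 and CYSTM1 depended on the test and the positions. The GL count of 8 became 4 with a difference over 10 points, 3 with at least 3 positions in every bull (63 tiles of the genes tested instead of 111), and 0 with the F test, with limma and at matched positions. With 13 reads per position in place of 10 the counts rose to 11 for GL, 9 for BDE and 11 for CCR, and the SCE count was 2. The calls over all tiles moved too. For GL they went from 51871 to 29088 with a difference over 10 points, 28884 with at least 3 positions and 72070 with 13 reads. With 13 reads they went from 33224 to 54346 for SCE, from 41634 to 63599 for BDE and from 60906 to 83557 for CCR. The SCE count of 2 became 1 with a difference over 10 points and 0 with the F test, limma or matched positions. With at least 3 positions it was also 0, but neither SCE DMR could then be tested. The BDE count of 6 became 3 with a difference over 10 points, with Benjamini-Hochberg adjustment or with at least 3 positions, 2 at matched positions, 1 without split positions, and 0 with the F test and limma. The loss without split positions came partly from q values of 0.00773 to 0.00972 that rose past the threshold, to at most 0.0126, in 3 tiles that hold none of them. The CCR count of 8 became 5 with a difference over 10 points or at least 3 positions. It was 1 at matched positions, and 0 with the F test and limma. All BDE and CCR DMRs that could still be tested with at least 3 positions stayed called. The others were left out of that test. The SCR count of 3 became 1 with a difference over 10 points, 2 with 10 reads per position or Benjamini-Hochberg adjustment (33242 and 42350 calls over all tiles, from 47656), and 0 with the F test, limma and at matched positions, and a coverage minimum of 15 reads left no tile to test. With each bull left out in turn the counts ranged from 4 to 10 for GL, 2 to 3 for SCE, 3 to 7 for BDE, 5 to 12 for CCR and 1 to 6 for SCR, while the calls over all tiles ranged from 46796 to 71413, 33467 to 51586, 38972 to 50544, 47254 to 94828 and 48404 to 72841. The lowest and highest CCR counts, without H06 and without H08, fell together with the lowest and highest over all tiles.

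No gene region passed the exact permutation test under any alternative, but 3 bulls against 3 cannot pass it, and with 4 against 4 a single region cannot pass after adjustment. Several whole-gene differences changed sign. The plain mean over all listed positions gave -0.878 points for GL in CYSTM1, -0.241 for BDE in NRG2 and 1.67 for CCR in CYSTM1. For SCE in NRG2, positions listed in every bull gave -0.410 and the gene without flanks -0.0858. For BDE in NRG2, the gene without flanks gave -0.0247 and the mean of both strands -0.0181. Positions listed in every bull gave 4.44 points for GL in CYSTM1, against 0.546. Leaving out 1 bull gave 0.343 to 0.924 for GL in NRG2, 0.161 to 0.790 for GL in CYSTM1, -0.330 to 0.434 for SCE in NRG2, -0.250 to 0.694 for SCE in CYSTM1, -0.494 to 0.606 for BDE in NRG2, -1.52 to 0.310 for CCR in NRG2 and -0.0435 to 1.02 for SCR in NRG2. Of the single GL tiles only chr7:52906001-52908000 changed sign, to 3.65 at matched positions and within -27.6 to 1.65 with 1 bull left out. The share of positions with a mean of at least 90% moved from 82.8% to 90.7% in NRG2 and from 83.7% to 75.7% in CYSTM1 when only positions listed in at least 12 bulls were used. Why these values moved was not tested. Depth is unknown for 12 bulls, no bull lists more than 2047 positions of NRG2 or 810 of CYSTM1, and a single position measured by about 10 reads cannot resolve small differences. No paired analysis was possible because the bulls are different animals whose labels give no pairing, and their numbers within a group follow accession order only.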

Other observations

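H04 and L04, which carry no group, had position-adjusted levels of 90.7% and 90.9% in NRG2 and of 89.9% and 90.7% in CYSTM1, within the range of the other bulls. L04 was under 80% at 6 of the 9 NRG2 split positions it listed and H04 at 1 of 6. In the NRG2 tile chr7:52832001-52834000 L04 had the lowest level of all 18 bulls, at 80.3%. In the CYSTM1 tile chr7:53046001-53048000 H04 had the lowest, at 18.6%, with 15 of its 18 positions inside the domain at the lower end of the gene.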
